A study of Mus musculus with 8 samples.

Results

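Mitochondrial ribosomal proteins are the genes whose mouse symbols read Mrpl or Mrps followed by a number and, in some, a letter. The RefSeq table held 78 such genes, all 78 had a probe on the array, and 77 of them entered the comparison, among 25062 genes or features tested in all. A gene entered when 4 or more of the 8 arrays had a probe of it well above background, and the brightest such probe stood for it. By symbol, 48 of the 77 belong to the large subunit (Mrpl) and 29 to the small subunit (Mrps). The gene left out was Mrpl21, whose only probe was well above background on 0 of the 8 arrays.

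The arrays measured RNA from white fat of 4 Rap1-/- and 4 wild-type (WT) samples, taken at 10 weeks of age, in order to compare gene expression with and without RAP1, a telomere-binding protein that also sits at other sites in the genome. Both genotypes shared a C57BL6/129SV (90%:10%) background. Per the study's methods the null allele was constitutive and present in the whole body. It came from a floxed Rap1 gene recombined by cre under the adenovirus EIIa promoter, which acts in the early embryo, and the cre was later bred out. The labels number the samples of a genotype as replicates and do not say which animal each came from, so that the p-values below measure the spread between these samples.

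Mitochondria carry their own ribosome, which translates the few proteins encoded by mitochondrial DNA, all of them core parts of the respiratory chain and ATP synthase. Its RNAs are made inside the organelle, whereas every one of its proteins is encoded in the nucleus, translated in the cytosol and imported. Some of these proteins descend from the bacterial ribosome and others exist in mitochondrial ribosomes alone. In white fat, mitochondria supply the energy and precursors for fatty acid and triglyceride synthesis.

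A few symbols do not match where the protein sits. Structures of the mammalian ribosome place Mrps18a and Mrps30 in the large subunit, and Mrps36 is now known as a component of the 2-oxoglutarate dehydrogenase complex. They are counted by symbol below unless stated. Levels are log2 signals relative to the 75th percentile of the same array, so that a level of 0 is that percentile.

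The mitochondrial ribosomal protein genes had small differences, most of them negative at the scaling used, and 0 of 77 passed the test. In Rap1-/- fat 67 of the 77 had a lower mean than in WT fat and 10 a higher one, when arrays were scaled to the 75th percentile. That is 87.0% lower, against a background of 59.9% of all genes or features tested. The split was 49 lower and 28 higher with median scaling (44.4% of all features lower) and 61 and 16 with quantile normalisation (49.4%). It was 63 and 14 with normexp background correction (66.8%) and with the deposited value table (49.3%). With scaling to the E1A spike-in probes it turned to 2 lower and 75 higher (16.2%). The spike-ins stood 1.91 log2 units above the 75th percentile on WT replicate 3, against at most 1.46 on any other array. Without WT replicate 3 the members' median at the 75th percentile scaling was -0.12. Spike-in scaling adds to each difference the mean height of the spike-ins above the 75th percentile in WT minus that in Rap1-/-. WT replicate 3, the highest array, makes this amount larger, so part of the shift comes from that array. The scaling was not run without WT replicate 3, so whether the members' median would then stay positive was not tested. The median difference of the 77 genes was -0.09 log2 units, equal to a level 5.85% lower in Rap1-/- fat, and the median of all genes tested was -0.04. Scaling to the spike-ins moved the median of all genes to 0.17 and that of the members to 0.12. By construction scaling to the 75th percentile, the median or the spike-ins adds 1 amount per array to all genes. That leaves the members' median minus that of all genes at -0.05. This gap was 0.0048 with normexp background correction. It was -0.02 without WT replicate 1, -0.03 without WT replicate 4 or Rap1-/- replicate 3, -0.07 without WT replicate 2, and -0.09 without WT replicate 3 or Rap1-/- replicate 2.

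With limma and Benjamini-Hochberg adjustment over all 25062 features, the smallest adjusted p of a member was 0.874, and 0 members had an adjusted p under 0.05, against a background of 0.00399%. At an unadjusted p under 0.05 there were also 0 members, against a background of 4.98% in either direction and 3.31% lower in Rap1-/-. The smallest unadjusted p, from the same limma fit, was 0.0641. The count at an unadjusted p under 0.05 was 3 with trended robust variances (3.90%, against 5.36% of all features in that fit). It was also 3 with the deposited value table (3.90%, against 4.54%), with 1 of these lower in Rap1-/-. The single gene called in the whole comparison was Terf2ip, which encodes RAP1. The probe that stood for it was 5.22-fold higher in Rap1-/- fat, and its other probe at least 43.4-fold lower.

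Member differences ran from -0.21 log2 units (Mrpl12) to 0.25 (Mrps6), and 94.8% of them were under 0.2 in size, against 72.4% of the other features. The members also varied less, with a median SD over the 8 arrays of 0.13, against 0.21 for the other features. All 77 were well above background on 8 arrays, whereas other features could enter with 4. The standard error of a difference had a median of 0.10 and a range of 0.07 to 0.20. For 74 of the 77 genes the 95% interval lay wholly between -0.5 and 0.5. The widest bounds of any member were -0.61 and 0.61. Arrays give no read depth, and their number limits the precision. In bulk tissue, fewer cells of a type and less RNA per cell cannot be told apart.

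**Figure D1:**
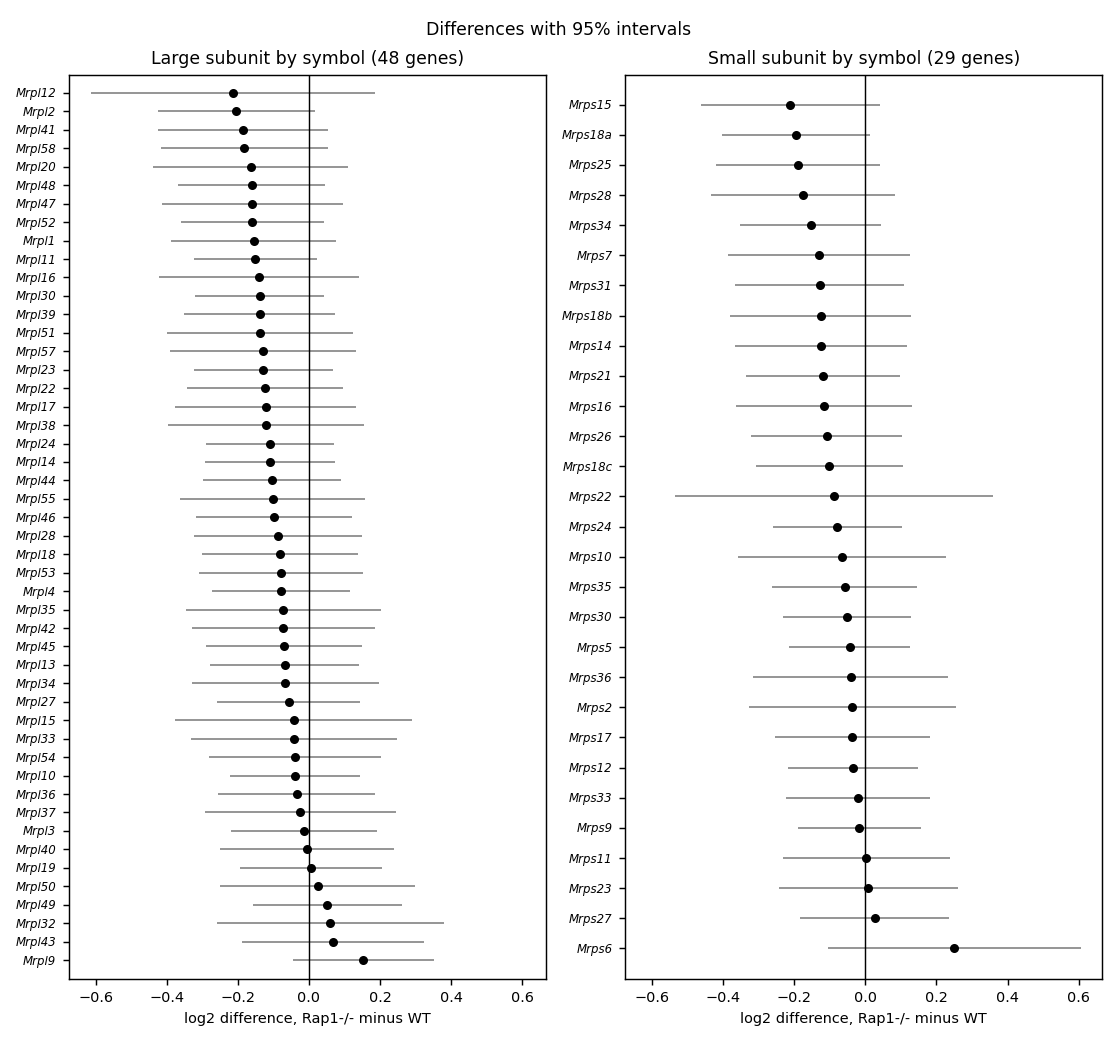
Difference between Rap1-/- and WT white fat for each of the 77 genes, in log2 units after scaling to the 75th percentile (horizontal axis), with large subunit symbols at left and small subunit symbols at right. Points are differences of means over 4 and 4 arrays and bars are 95% intervals from limma. Of the points, 67 lie below 0 and 10 above it, a split that turns to 2 and 75 with spike-in scaling, and every interval includes 0.

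In the large subunit 42 of 48 genes had a lower mean in Rap1-/- fat at the 75th percentile scaling, with a median of -0.09, and in the small subunit 25 of 29, with a median of -0.08. Spike-in scaling turned both medians positive, at 0.12 and 0.13. Placing Mrps18a and Mrps30 in the large subunit and leaving out Mrps36 gave 44 of 50 lower with a median of -0.0928 in the large subunit and 22 of 26 lower with a median of -0.0842 in the small subunit, against -0.0928 and -0.0797 by symbol. Genes with a bacterial counterpart (40 of 45 lower, median -0.08) and those particular to mitochondria (26 of 31 lower, median -0.10) lay close together. The difference between these classes was not tested.

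Mrpl2, the counterpart of the bacterial protein L2 beside the peptidyl transferase centre, had levels of 4.83, 4.997, 4.86 and 4.90 in Rap1-/- fat, against 5.26, 4.90, 5.10 and 5.15 in WT fat. The groups overlapped through WT replicate 2. The difference was -0.20 ± 0.10 (SE, n = 4 each, limma adjusted p = 0.874).

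Mrpl11 forms the base of the stalk, the arm of the large subunit that elongation factors touch first. Its levels were 4.85, 4.81, 4.86 and 4.86 in Rap1-/- fat, against 5.10, 4.90, 4.997 and 4.99 in WT fat. All 4 Rap1-/- values lay under all 4 WT values, and the difference was -0.15 ± 0.08 (SE, limma adjusted p = 0.874).

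Mrpl12, the mobile part of that stalk, which also binds the mitochondrial RNA polymerase, was the most variable large subunit gene (SD over the 8 arrays, 0.27). Its levels were 4.26, 4.70, 4.61 and 4.65 in Rap1-/- fat, against 5.04, 4.32, 4.78 and 4.94 in WT fat. Rap1-/- replicate 1 and WT replicate 2 lay far under the others, and the difference of -0.21 ± 0.17 (SE) came with an adjusted p of 0.886 in limma. The third stalk gene, Mrpl10, which anchors Mrpl12, differed by -0.04.

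The mitochondria-specific genes Mrpl52, Mrpl41 and Mrpl48 and the peptidyl-tRNA hydrolase Mrpl58 (also called Ict1, which releases stalled ribosomes) completed the large subunit genes with the smallest p among those lower. Mrpl58 had levels of 4.12, 4.27, 4.23 and 4.34 in Rap1-/- fat, against 4.56, 4.19, 4.45 and 4.48 in WT fat, a difference of -0.18 ± 0.10 (SE, limma adjusted p = 0.874). As for Mrpl2, WT replicate 2 lay among the Rap1-/- values while the other WT values lay above all of them. Mrpl52, Mrpl41 and Mrpl48 differed by -0.16, -0.19 and -0.16, each with WT replicate 2 or WT replicate 3 inside the Rap1-/- range. Of the 7 genes of the central protuberance, the crest of the large subunit to which Mrpl48 and Mrpl58 belong, all 7 had a lower mean at the 75th percentile scaling, from -0.18 to -0.01. The 6 proteins around the exit of the peptide tunnel, among them Mrpl45, which holds the ribosome to the inner membrane, were also all lower, from -0.16 to -0.07. These groupings were drawn up with the values known and carry no test, and 87.0% of all 77 members were lower at this scaling.

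Among the 6 large subunit genes with a higher mean, Mrpl9, a counterpart of bacterial L9, had the smallest p. Its levels were 2.15, 2.11, 1.99 and 2.22 in Rap1-/- fat, against 2.07, 1.87, 1.93 and 1.99 in WT fat. WT replicate 1 lay above Rap1-/- replicate 3, so that the groups overlapped, and the difference was 0.15 ± 0.09 (SE, limma adjusted p = 0.874). Mrpl43 and Mrpl49 followed at 0.07 and 0.05, with adjusted p of 0.938 and 0.943 in limma. Mrpl15, the other widely spread large subunit gene (SD 0.20), had levels of -0.07, 0.45, -0.02 and 0.42 in Rap1-/- fat, against 0.22, 0.09, 0.27 and 0.38 in WT fat. Its Rap1-/- values fell into a low and a high pair, and the means differed by -0.04.

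In the small subunit by symbol, Mrps18a had the smallest p of all members. Its levels were 3.18, 3.39, 3.15 and 3.30 in Rap1-/- fat, against 3.60, 3.42, 3.39 and 3.40 in WT fat. The groups did not overlap, by a margin too small to show at 2 decimals, and the difference was -0.19 ± 0.09 (SE, limma adjusted p = 0.874). WT replicate 1 stood far above the other WT values. Its paralogues Mrps18b and Mrps18c, which do sit in the small subunit, differed by -0.13 and -0.10.

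Mrps15, a counterpart of bacterial S15, had levels of 3.12, 3.30, 3.37 and 3.41 in Rap1-/- fat, against 3.73, 3.34, 3.50 and 3.48 in WT fat. The difference of -0.21 ± 0.11 (SE, limma adjusted p = 0.874) was the most negative in the small subunit, and again WT replicate 2 fell among the Rap1-/- values. The mitochondria-specific Mrps25 and Mrps34 differed by -0.19 and -0.15, Mrps28 by -0.17 and Mrps21 by -0.12, all with limma adjusted p from 0.874 to 0.886. At the decoding site and the entrance for mRNA, Mrps5, Mrps12 and Mrps24 differed by -0.04, -0.04 and -0.08.

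Mrps6, the counterpart of bacterial S6, had the highest difference of all 77 genes. Its levels were 5.81, 5.59, 5.48 and 5.54 in Rap1-/- fat, against 5.32, 5.08, 5.25 and 5.77 in WT fat. WT replicate 4 lay inside the Rap1-/- range and the other WT values below it. The difference of 0.25 ± 0.15 (SE, limma adjusted p = 0.876) was 0.50 within slide 1 and 0.00 within slide 2. The Mrps6 gene overlaps Slc5a3, a sodium/myo-inositol cotransporter, in the RefSeq table. A pair of Slc5a3 probes, looked at after the Mrps6 values were seen, differed by 0.17 and 0.33, each highest on Rap1-/- replicate 1, as Mrps6 was. On WT replicate 4, where Mrps6 was next highest, the Slc5a3 probes were not. They stood there at 2.10 and 1.99, below Rap1-/- replicate 4 (2.26 and 2.23).

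Mrps27 and Mrps23, the other small subunit genes with a higher mean that were followed, differed by 0.03 and 0.01. Mrps22, a mitochondria-specific protein, had the widest spread of any member (SD over 8 arrays, 0.29). Its levels were 1.98, 2.27, 1.80 and 1.85 in Rap1-/- fat, against 2.37, 1.65, 1.84 and 2.40 in WT fat, so that WT values lay at both ends, and the means differed by -0.09. Mrps30 differed by -0.05 and Mrps36 by -0.04.

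**Figure D2:**
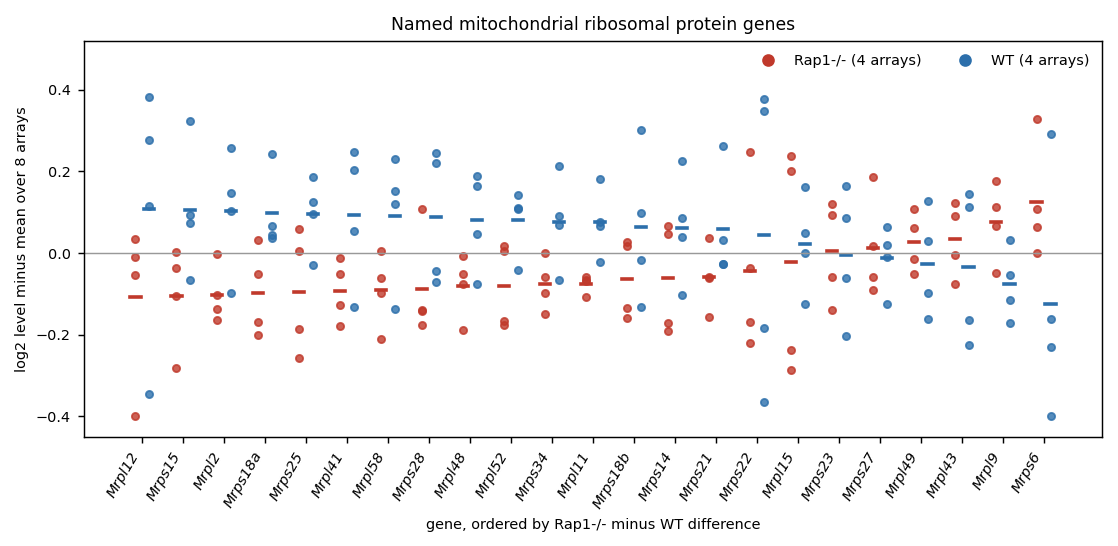
Levels of the 23 named genes on each array, as log2 level minus the mean of the gene over the 8 arrays (vertical axis), with Rap1-/- points to the left of WT points and bars at the group means. Genes run from Mrpl12 (-0.21) to Mrps6 (0.25), and the groups overlap in all but Mrps18a and Mrpl11.

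The groups did not overlap for 4 of the 77 genes, all lower in Rap1-/- at the 75th percentile scaling, which is 5.19%, against a background of 2.36% lower and 3.26% in either direction. Besides Mrps18a and Mrpl11 they were Mrpl30 and Mrpl24, which are named here for that reason, after their values were seen. Mrpl30 had levels of 4.10, 4.13, 4.15 and 4.19 in Rap1-/- fat, against 4.41, 4.19, 4.27 and 4.24 in WT fat. Mrpl24 had levels of 4.28, 4.28, 4.27 and 4.23 in Rap1-/- fat, against 4.51, 4.34, 4.36 and 4.29 in WT fat. In both, the lowest WT value all but touched the highest Rap1-/- value.

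The mitochondrial ribosomal protein genes ranged more widely among the arrays of each genotype than the means of the genotypes differed. With each gene centred on its own mean, the 77 genes averaged -0.10, 0.03, -0.10 and 0.02 log2 units on the 4 Rap1-/- arrays, against 0.17, -0.08, -0.04 and 0.11 on the 4 WT arrays. The group means were -0.04 ± 0.07 in Rap1-/- fat and 0.04 ± 0.12 in WT fat (SD, n = 4 each). WT replicates 1 and 4 were high, Rap1-/- replicates 1 and 3 were low, and the other arrays of both genotypes lay between them. WT replicate 1 was the highest of the 8 arrays for 50 of the 77 genes and WT replicate 4 for 19. On WT replicate 1, 76 genes were above their own mean, and on Rap1-/- replicate 3 only 1 was. Rap1-/- replicate 1 was the lowest array for 23 genes, and Rap1-/- replicate 3 and WT replicate 2 for 20 each.

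**Figure D3:**
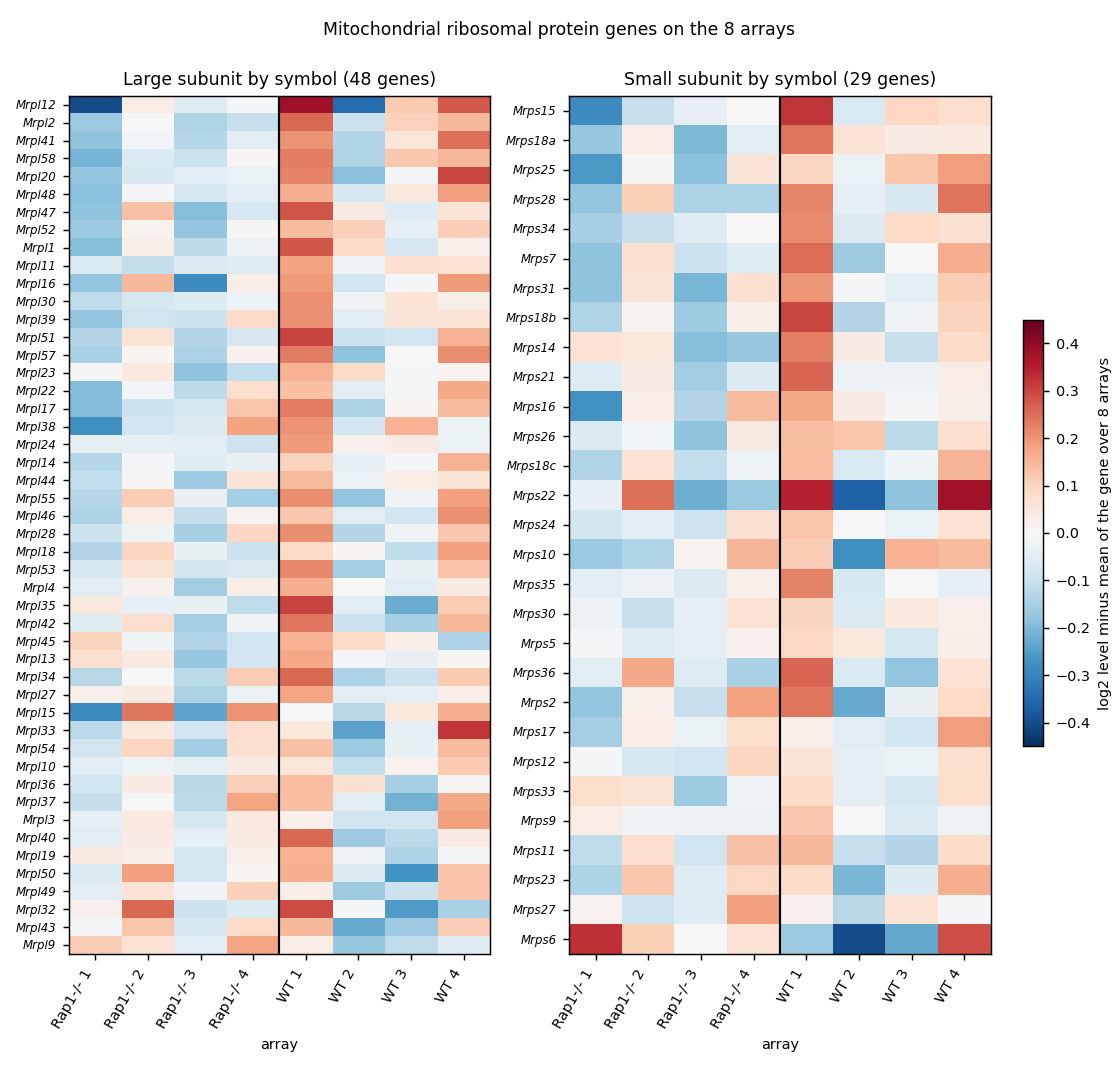
Level of each of the 77 genes on each array, as log2 level minus the mean of the gene over the 8 arrays (colour), with the 4 Rap1-/- arrays left of the black line and the 4 WT arrays right of it. WT replicate 1 is red in nearly every row (76 genes above their own mean) and Rap1-/- replicate 3 is blue in nearly every row (1 gene above), while WT replicate 2 is mostly blue (14 above).

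Because 1 array stood so high, its weight was examined. Without WT replicate 1 the median difference of the members was -0.05 and 56 of 77 were lower. Without WT replicate 2, the low WT array, the median was -0.13, 71 were lower and 7 members (9.09%) had an unadjusted p under 0.05, against 9.20% of all features in the same fit, and none had an adjusted p under 0.05. The arrays came on 2 slides with 2 arrays of each genotype on each, and the median was -0.10 within slide 1 (64 lower) and -0.08 within slide 2 (62 lower). In all, 55 genes were lower on both slides, 6 were higher on both and 16 changed sign. WT samples always held the first 2 positions of a slide and Rap1-/- samples the next, and what belongs to the position cannot be told apart from the genotype.

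Across the 8 arrays the members moved together. The level of a member and the mean of the other members had a median Pearson r of 0.77, and r was over 0.5 for 71 of the 77. For the other 24985 features, the median r with the mean of the members was 0.07 and 17.1% were over 0.5. The median for the members was still 0.77 once the mean of each genotype had been subtracted. Mrps18b (0.98) and Mrpl57 (0.97) followed the other members most closely, and Mrps6 (0.05), Mrpl45 (0.07), Mrpl9 (0.18) and Mrps27 (0.21) least. These values describe 8 arrays whose shared labelling and scaling act on all genes of an array at once.

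The 80 respiratory chain and ATP synthase genes had a median r of 0.84 with the mean of the members, whereas the 78 cytosolic ribosomal protein genes had 0.01. Respiratory chain genes averaged -0.28, 0.07, -0.10 and -0.07 on the Rap1-/- arrays, against 0.29, -0.12, 0.05 and 0.16 on the WT arrays, so that the same WT arrays 1 and 4 were high. At the 75th percentile scaling 78 of the 80 were lower in Rap1-/- fat, with a median of -0.18, whereas spike-in scaling put 31 below and 49 above 0 (median 0.0238). There were 8 of 80 (10%, against 4.98% of all features) at an unadjusted p under 0.05 and 0 at an adjusted p under 0.05 in limma. The 8 became 33 without WT replicate 2, where the share of all features rose to 9.20%. In the following, the share of all features in the same fit is in parentheses. The count was 14 without Rap1-/- replicate 2 (3.93%), 6 without WT replicate 4 (6.12%) and 5 without Rap1-/- replicate 4 (5.35%). It was 4 without WT replicate 3 (3.58%) or Rap1-/- replicate 3 (4.87%), and 1 without WT replicate 1 (3.30%) or Rap1-/- replicate 1 (3.50%). Cytosolic ribosomal protein genes, in contrast, were highest on WT replicate 2 (0.13), where the mitochondrial ones were low. At the 75th percentile scaling 74 of the 78 were lower (94.9%, against 59.9% of all features), with a median of -0.11. The groups did not overlap for 15 (19.2%), all lower, against 2.36% of all features. At an unadjusted p under 0.05 in limma there were 5 (6.41%, against 4.98%). With quantile normalisation 28 were lower (median 0.0185), and with spike-in scaling 5 were (median 0.0973). The difference in shift between these lists was not tested.

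**Figure D4:**
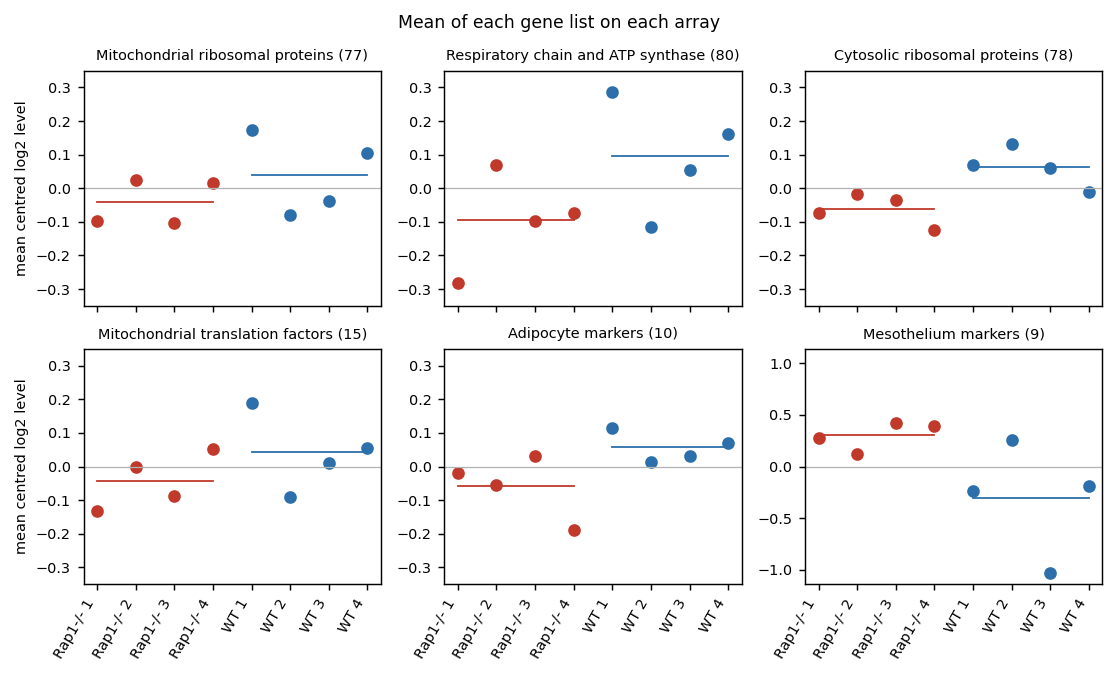
Mean centred log2 level (vertical axis) of 6 gene lists on each array, with Rap1-/- arrays at left and WT arrays at right, lines at the group means and the number of genes tested in parentheses. Mitochondrial ribosomal proteins and the respiratory chain both peak on WT replicate 1 (0.17 and 0.29) and dip on WT replicate 2, whereas cytosolic ribosomal proteins peak on WT replicate 2 (0.13), and the axis of the mesothelium panel is wider than the others.

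Other parts of the mitochondrial translation system were read from lists drawn up with earlier results known. Counts in these lists hold for the 75th percentile scaling. With spike-in scaling every list median was above 0, and with median scaling so were those of the assembly, transcription and regulator lists. Ribosomal proteins with other names (Dap3, a GTP-binding protein of the small subunit, and 4 more) had a lower mean in 5 of 5, with a median of -0.09. Dap3 had levels of 4.73, 4.77, 4.69 and 4.74 in Rap1-/- fat, against 4.94, 4.78, 4.81 and 4.88 in WT fat, groups that just missed each other (difference -0.12, limma adjusted p = 0.878). Translation factors were lower in 13 of 15, with a median of -0.09. The recycling factor Gfm2 differed by -0.22, the release factor Mtrf1l by -0.13 and the RNA-binding protein Slirp by -0.15.

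Factors that assemble the ribosome or modify its RNA were split, with 15 of 24 lower and a median of -0.01 (7 of 24 and 0.0452 with median scaling, 9 of 24 and 0.02 without WT replicate 1). The methyltransferase Trmt61b differed by 0.21, against -0.20 for the small subunit assembly GTPase Eral1 and -0.11 for the helicase Dhx30. Among mitochondrial aminoacyl-tRNA synthetases 18 of 21 were lower, with a median of -0.06. Wars2, which charges the tryptophan tRNA, had levels of -1.65, -1.74, -1.97 and -1.77 in Rap1-/- fat, against -1.40, -1.12, -1.15 and -1.68 in WT fat. It was the sole gene of these lists with an unadjusted p under 0.05 (-0.44 ± 0.14, SE, limma adjusted p = 0.874). That is 1 of 21 synthetases (4.76%), against 4.98% of all features. The highest Rap1-/- value and the lowest WT value of Wars2 crossed. Mitochondrial transcription genes were lower in 4 of 7, with a median of -0.03 that ran from -0.07 to 0.03 with an array left out.

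Of the 9 nuclear regulators of mitochondrial genes, 5 had a lower and 4 a higher mean. The coactivator Ppargc1a had levels of -0.97, -0.53, -0.46 and -0.73 in Rap1-/- fat, against -0.18, -0.61, -0.19 and -0.48 in WT fat. The groups overlapped, and the difference was -0.31 ± 0.15 (SE, limma adjusted p = 0.874). Its relative Ppargc1b differed by -0.29, and Myc by 0.28 with a wider spread (SE 0.24). Beyond Wars2 and the respiratory chain genes, 0 genes of these mitochondrial lists had an unadjusted p under 0.05 in limma, against 4.98% of all features.

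Promoters are shown for 4 members whose values stood at the ends of the comparison, namely Mrps18a (the smallest p), Mrps18b (the closest follower of the other members), Mrpl9 (the smallest p among higher large subunit genes) and Mrps6 (the highest difference). Each window runs from 250 bases before the transcription start to 50 after it on the gene's own strand, from RefSeq on GRCm38.p6. Capitals mark matches, on either strand, to the motifs CGCATGCG (core of the NRF1 site), CCGGAAG (ETS factors such as GABP), ATGGCGG (YY1), GGGCGG (SP1) and TTAGGG (the telomere repeat, recognised by the complex that holds RAP1).
Mrps18a promoter, chr17:46110754-46111053, plus strand: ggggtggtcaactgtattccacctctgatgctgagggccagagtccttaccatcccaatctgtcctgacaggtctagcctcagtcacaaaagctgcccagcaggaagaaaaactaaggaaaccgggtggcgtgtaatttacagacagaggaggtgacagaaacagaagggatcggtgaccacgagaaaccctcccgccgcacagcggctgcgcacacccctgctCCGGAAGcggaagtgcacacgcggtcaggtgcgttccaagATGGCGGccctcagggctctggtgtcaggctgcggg
Mrps18b promoter, chr17:35916391-35916690, minus strand: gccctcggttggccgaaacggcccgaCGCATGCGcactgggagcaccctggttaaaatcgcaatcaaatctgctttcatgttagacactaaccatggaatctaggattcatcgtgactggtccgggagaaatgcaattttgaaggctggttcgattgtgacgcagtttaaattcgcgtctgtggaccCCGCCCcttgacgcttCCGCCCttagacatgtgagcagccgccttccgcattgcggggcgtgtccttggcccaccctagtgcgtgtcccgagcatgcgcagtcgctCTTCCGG
Mrpl9 promoter, chr3:94443086-94443385, plus strand: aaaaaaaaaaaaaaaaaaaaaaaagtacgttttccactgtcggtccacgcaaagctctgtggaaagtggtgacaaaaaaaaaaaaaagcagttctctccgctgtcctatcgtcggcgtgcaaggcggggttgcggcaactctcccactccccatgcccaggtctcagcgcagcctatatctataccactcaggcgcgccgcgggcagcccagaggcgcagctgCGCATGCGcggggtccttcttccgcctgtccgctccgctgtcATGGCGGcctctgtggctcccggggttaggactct
Mrps6 promoter, chr16:92058086-92058385, plus strand: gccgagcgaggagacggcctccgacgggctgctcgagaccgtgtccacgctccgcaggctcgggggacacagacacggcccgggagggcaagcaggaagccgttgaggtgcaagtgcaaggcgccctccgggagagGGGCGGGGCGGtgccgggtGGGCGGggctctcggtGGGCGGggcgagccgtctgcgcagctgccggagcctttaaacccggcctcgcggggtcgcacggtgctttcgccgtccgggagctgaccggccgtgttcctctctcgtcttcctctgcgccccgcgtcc
Mrps18a held an ETS and a YY1 match on the strand of the gene. Mrps18b held the NRF1 core, a pair of SP1 matches and an ETS match on the opposite strand at its end. Mrpl9 held the NRF1 core and a YY1 match, and Mrps6 held 4 SP1 matches, the first of which shares a base with the next.

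Of the 77 members tested, 68 had a promoter in the table. NRF1 cores stood in 7 of the 68 (10.3%), against 1.87% of all 32851 windows and 2.77% of 17491 protein-coding genes with a window. ETS matches stood in 25 (36.8%), against 8.86% of windows and 12.9% of protein-coding genes, and YY1 matches in 13 (19.1%), against 4.05% and 6.05%. SP1 matches, in 34 of the 68 members, stood in 35.7% of windows and 49.2% of protein-coding genes. The telomere repeat TTAGGG stood in 6 members (8.82%), against 10.6% of windows and 12.0% of protein-coding genes. It occurred as 2 tandem copies in 0 members and in 4 of all windows. A gene counts once if any of its windows matches, and 3 members had several windows. The single repeat lies within the tandem copies, CGCATGCG reads the same on both strands, and the other motifs do not contain each other.

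The matches describe letters in a window and not binding, and the members with and without them were compared by their medians with no test. Members with an NRF1 core had a median difference of -0.12, against -0.09 for those without. With an ETS match it was -0.10, against -0.09 without, and with a YY1 match -0.04, against -0.11 without. With a single TTAGGG repeat it was -0.09, as without.

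Probes of the same gene did not always give the same value. Of the 77 genes 20 had 2 kept probes, and the probes had the same sign in 13 of them (11 lower, 2 higher) and opposite signs in 7. The widest gaps were those of Mrps14 (-0.12 on the brighter probe, 0.09 on the other), Mrpl49 (0.05 and -0.14), Mrpl41 (-0.19 and -0.02) and Mrps18b (-0.13 and 0.03). With the mean of a gene's probes in place of the brightest, the members' median was -0.08 and 67 of 77 were lower.

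The arrays matched their labels. A Terf2ip probe had levels from -7.58 to -7.13 on the Rap1-/- arrays, not well above background on any, against 0.06 to 0.49 on the WT arrays, a signal at least 43.4-fold lower (limma adjusted p over all probes, 1.25e-06). That fold is a lower bound, taken from the dimmest signals that still counted as well above background. The other Terf2ip probe, which stood for the gene, was 5.22-fold higher in Rap1-/- fat. All 10 adipocyte markers passed the background filter. Markers of other cell types also differed in mean, with 0 past an adjusted p of 0.05 in limma. At an unadjusted p under 0.05 in limma were 3 of 9 mesothelium, 5 of 10 adipocyte and 1 of 10 endothelial markers, against 4.98% of all features. Mesothelium markers had a higher mean in Rap1-/- fat in 9 of 9, with a median of 0.63 and summed signals of 39.0 to 48.4 times the 75th percentile, against 17.1 to 44.4 in WT fat. Fibroblast and preadipocyte markers were higher in 9 of 10 (median 0.24, sums of 685 to 740 in Rap1-/- fat, against 500 to 780 in WT fat), and adipocyte markers lower in 8 of 10 (median -0.24, sums of 3408 to 3724, against 3757 to 4461). Without WT replicate 3 these medians were 0.37, 0.13 and -0.16, and without WT replicate 2 that of the fibroblast and preadipocyte markers was 0.41. The mesothelium median was 0.21 within slide 1 and 1.05 within slide 2, and the mean centred level of these markers was -1.04 on WT replicate 3, against -0.23, 0.26 and -0.19 on the other WT arrays. Their part in the members' difference was not tested. Skeletal muscle markers varied most, with sums of 12.0 to 1554 on Rap1-/- arrays, against 99.3 to 658 on WT arrays, and with their mean level as a covariate the members' median was -0.08 and 66 of 77 were lower.

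**Figure D5:**
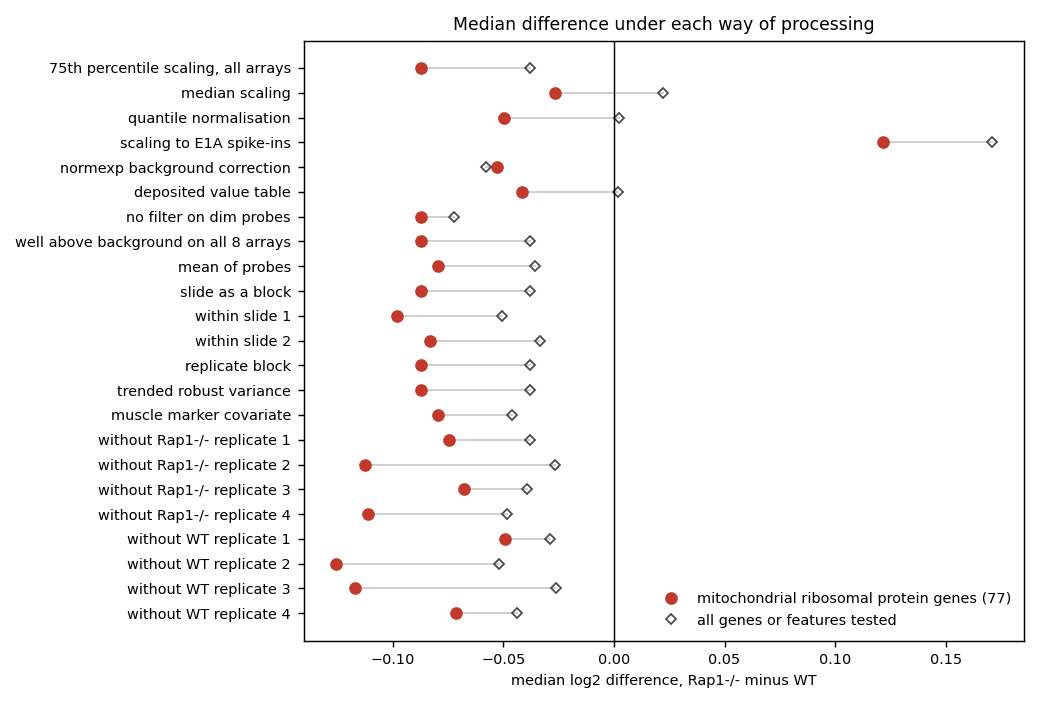
Median log2 difference, Rap1-/- minus WT (horizontal axis), of the 77 mitochondrial ribosomal protein genes (filled) and of all genes or features tested (open diamonds) under each way of processing. The members lie left of all genes in each row but normexp background correction (-0.05 for the members, against -0.06 for all genes), and spike-in scaling carries both to the right of 0 (0.12 and 0.17).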

How the data were processed

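Total RNA from white fat of 4 Rap1-/- and 4 WT samples was labelled with Cy3, and the authors ran each sample on its own Agilent mouse array in 1 colour. Per the file headers, Feature Extraction 10.7.3.1 read the images, while the study's methods give another version. The deposited scanner files give the processed signal of each spot in linear intensity units, after background correction and before any scaling between arrays. A value table, also deposited, holds log2 units. Its normalisation is not given in the sources used here, and normexp (offset 50) plus quantile normalisation returned the same values on all 8 arrays to a median absolute difference of 0.0037 or less. The authors' notes name limma.

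The log2 processed signal minus the 75th percentile of the array was averaged over the spots of a probe that had no outlier flag. Of 55681 probes, 33979 were well above background on 4 or more arrays and were kept. RefSeq accessions named 26050 probes (46.8%) through a GRCm38.p6 table, and the rest were tested unnamed. The brightest probe stood for a gene. Genotypes were compared with limma 3.58.1 (lmFit, eBayes; R 4.3.3), and p-values were adjusted by Benjamini-Hochberg over 25062 features at a threshold of 0.05. No gene set was tested, and lists are described by counts and medians. The fit was tested on simulated data. The 75th percentile of the arrays ran from 302 to 497 intensity units, and 59.7% to 65.2% of spots were well above background. Python 3.11.15 and matplotlib 3.10.9 drew the figures.

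The members, lists, motifs and rules were chosen with earlier results of these data known. Named genes were Terf2ip; in each subunit up to 6 lower and 3 higher members with the smallest p and the 2 of widest SD over the arrays; the 4 genes whose probes differed most; up to 3 genes of each other list by p; and Mrps18a, Mrps30 and Mrps36 for their assignment. Mrpl24, Mrpl30, Mrpl57, Slc5a3 and the structural groups were added after their values were seen. The other small subunit and large subunit genes given serve those groups. Alternatives changed the scaling, the background correction, the filter, the choice of probe, the slide, a replicate block, the variance model, a muscle covariate and the arrays included.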

Additional observations from a re-analysis of the deposited data

Results flagged for a closer look

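In a comparison of 52 groups of 4 arrays (the named members and the mean of the members and of each subunit, in each genotype), the gap of the farthest array to its neighbour, divided by the range of the group, passed the 95% critical value of Dixon's ratio for 4 values in 2 groups. Chance alone passes about 1 in 20 such groups. Mrps28 on the Rap1-/- arrays had a ratio of 0.873, from Rap1-/- replicate 2 (4.58, against 4.30 to 4.34 on the other 3). Mrps18a on the WT arrays had a ratio of 0.856, from WT replicate 1 (3.60, against 3.39 to 3.42 on the other 3).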

How the results depend on the processing

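Of 22 alternatives, the number of members with an adjusted p under 0.05 in limma was 0 in every one, and no named member passed. The count of members at an unadjusted p under 0.05 in limma was 0. It became 3 with the deposited table (3.90%, against 4.54% of all features in that fit) and 3 with trended robust variances (3.90%, against 5.36%). Within slide 1 the count was 1 (1.30%, against 4.52%). When an array was left out it ran from 0 to 7. Without Rap1-/- replicate 2 it was 1 (1.30%, against 3.93%), as without WT replicate 4 (1.30%, against 6.12%). Without WT replicate 2 it was 7 (9.09%, against 9.20%). The count of all genes called, which was 1, became 2 with normexp, the deposited table or trended robust variances, and 0 within slide 1 or within slide 2. Leaving out an array moved the members' median between -0.13 and -0.05 (-0.05 without WT replicate 1) and the number lower between 56 and 72. With the replicate block the members' median was -0.09, 67 were lower and 1 gene was called in all. Arrays sharing a number did not deviate together (correlations of -0.22 to -0.13), so that the numbers were not taken as pairs.

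Scaling to the E1A spike-ins gave a members' median of 0.122 (0.116 in the large and 0.129 in the small subunit) with 2 members lower. It reversed 15 of 23 named members, to 0.058 (Mrpl11), 0.166 (Mrpl15), 0.0043 (Mrpl2), 0.0226 (Mrpl41), 0.0474 (Mrpl48), 0.049 (Mrpl52), 0.0267 (Mrpl58), 0.0845 (Mrps14), 0.0144 (Mrps18a), 0.0829 (Mrps18b), 0.0887 (Mrps21), 0.12 (Mrps22), 0.0197 (Mrps25), 0.0339 (Mrps28) and 0.0544 (Mrps34). By construction this scaling adds 1 amount per array to all genes. The spike-ins stood highest on WT replicate 3 (1.91 log2 units above the 75th percentile, against at most 1.46 on any other array). Without that array the members' median at the 75th percentile scaling was -0.12. Being the highest, WT replicate 3 makes the amount added to each difference larger, so part of the shift comes from it. Spike-in scaling without it was not run, so which reversals would then remain was not tested. Outside spike-in scaling 18 of the 23 kept their direction. Mrpl15 was 0.0173 with median scaling and 0.0377 within slide 1, and ran from -0.129 to 0.0458 with an array left out. Mrps22 was 0.115 within slide 1 and ran from -0.225 to 0.0224. Mrps23 was -0.0333 within slide 2 and ran from -0.0582 to 0.0647. Mrps27 was -0.0126 with the muscle covariate and ran from -0.0316 to 0.0609. Mrpl49 was -0.0445 with the mean of its probes. The cause of these changes was not tested. The members' median minus that of all genes was -0.05 with the 75th percentile (-0.09 to -0.02 with an array left out), 0.0048 with normexp background correction and -0.0149 without a filter on dim probes. With 4 arrays a genotype, differences inside the 95% intervals given could not be resolved.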
